A study of Homo sapiens and Mus musculus with 18 samples.

Results

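The collagen chain genes, which encode the polypeptides that assemble in trimers into the collagens of the extracellular matrix, were followed through RNA-seq of human and mouse ESCs and of the gastruloids made from them. Members were the protein-coding genes whose symbol is COL followed by a number, A and a number (in GENCODE, by the gene identifier of the count table): 44 of 44910 genes in human and 43 of 29720 in mouse, 87 of 74630 in all. By symbol, 42 members were matched between species, and the counterparts of 2 human members, COL10A1 and COL21A1, and of 1 mouse member, Col6a4, were not analysed here. The choice used names and not measured values.

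The study profiled 18 libraries in 9 groups, with 2 biological replicates each, to follow cells from the pluripotent state into gastruloids, which are aggregates of ESCs that break symmetry and elongate in culture. In human, naïve H9 ESCs were a chemically reset derivative of the H9 line kept in N2B27 medium with PXGL, which had been grown on irradiated mouse embryonic fibroblasts that were then removed over passages on Geltrex. H9 in the primed state and RUES2-GLR, a reporter derivative of the RUES2 line that was primed throughout, were grown in StemFlex on Geltrex. Early (24 h) and late (120 h) RA-gastruloids were aggregated from RUES2-GLR ESCs that had been pre-treated with CHIR99021, which activates Wnt signalling, and retinoic acid (RA), and the late ones also received Matrigel, a basement membrane extract, and RA. In mouse, all groups came from the E14Tg2a ESC line: naïve ESCs in 2i and LIF, epiblast-like cells (EpiLCs) made from them on fibronectin with activin A and bFGF, and early and late gastruloids seeded from naïve ESCs and given a pulse of CHIR99021. Each species' gastruloids came from 1 line, and the gastruloids of a library were pooled, so that the fraction of cells that express a gene was not measured. In such bulk RNA, fewer cells of a type and less RNA per cell cannot be told apart.

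Collagens are grouped by how their trimers assemble. Fibrillar chains (types I, II, III, V, XI, XXIV and XXVII) build the banded fibres of connective tissue and cartilage, type IV chains form the network of basement membranes, and type VI chains form beaded filaments around cells. FACITs (such as types IX, XII and XIV) decorate fibrils, multiplexins (types XV and XVIII) sit in basement membranes, and membrane-spanning collagens (types XIII, XVII, XXIII and XXV) stay on the cell surface. In the early embryo, basement membranes form beneath the epiblast, and type II and type IX collagen are laid down around the notochord, while type I and type III are typical products of mesenchyme and fibroblasts.

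Of the type IV chains, 6 genes lie as 3 pairs that start close together and are transcribed away from each other, COL4A1 with COL4A2 on chromosome 13, COL4A4 with COL4A3 on chromosome 2 and COL4A6 with COL4A5 on the X chromosome. The same 3 pairs stood head to head in mouse. The gene models disagree on the starts. In the exon coordinates deposited with the counts, COL4A1 and COL4A2 overlapped (a gap of -1346 bases), as did Col4a1 and Col4a2 (-22 bases). The starts of the other human pairs lay 171 and 341 bases apart there. The human stretches are shown because the members of each pair are compared below. They were read from RefSeq promoter windows of GRCh38.p14, 5′ to 3′ on the plus strand, which is the strand of COL4A2, COL4A3 and COL4A5, and capitals mark CCAAT or its reverse ATTGG and GGGCGG or its reverse CCGCCC.
COL4A1 and COL4A2, chr13:110307158-110307283: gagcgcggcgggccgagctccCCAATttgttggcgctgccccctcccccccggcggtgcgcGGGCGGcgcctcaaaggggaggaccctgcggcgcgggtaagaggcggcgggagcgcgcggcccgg
COL4A4 and COL4A3, chr2:227164374-227164455: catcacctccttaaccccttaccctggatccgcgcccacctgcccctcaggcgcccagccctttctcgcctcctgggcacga
COL4A6 and COL4A5, chrX:108439588-108439708: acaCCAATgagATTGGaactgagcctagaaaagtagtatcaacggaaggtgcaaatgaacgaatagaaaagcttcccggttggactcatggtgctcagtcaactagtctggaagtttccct
The COL4A1 and COL4A2 stretch held all 126 bases between the 2 RefSeq starts, with a GC content of 80.2%, 1 CCAAT match and 1 GGGCGG match. For COL4A4 and COL4A3 the stretch held only the 82 of 418 bases between the starts that lay in both windows. It had a GC content of 67.1% and no match, while the COL4A3 window held GGGCGG outside the stretch. For COL4A6 and COL4A5 the bases in both windows were 121 of 379, with a GC content of 44.6% and 2 CCAAT matches, 1 on each strand. Over all 35116 windows of 300 bases (250 before and 50 after a start), CCAAT was found on either strand in 34.6% and GGGCGG in 45.0%. For the collagens, 44 windows of 32 genes were found, of which 14 held CCAAT, 24 held GGGCGG and 8 held TATAAA, a motif found in 11.5% of all windows.

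Depth ranged from 3681739 to 38771193 counts per library in human and from 6487157 to 20052505 in mouse, so that 3 counts, taken as the floor for a library at 0, stood for 0.0714 to 0.954 CPM in human and 0.148 to 0.446 CPM in mouse. Levels are CPM (counts scaled to library size) after TMM scaling. Levels of different genes are compared as TPM, which also divides by exon length, with ratios in CPM only where named. Differences were tested by quasi-likelihood in edgeR, and p was adjusted by the Benjamini-Hochberg method over all genes tested. A gene was called changed where its adjusted p was under 0.05 and its log2 fold change was over 1 in size. Pluripotency markers, summed, went from 1992 to 3702 in the human ESC libraries to 546 to 553 in late RA-gastruloids, where NANOG was at 0. In mouse they went from 1834 to 2940 in mouse ESCs and EpiLCs to 582 to 596 in late gastruloids. Of 12 fibroblast markers, DCN was at 8.03 and 6.18 CPM in naïve H9 ESCs and 0 in both primed H9 libraries, LUM at 1.56 and 2.12 against 0 and PRRX1 at 3.39 and 3.49 against 0 and 0.0476, while THY1 was at 0.209 and 0.286 against 380.2 and 395. The summed fibroblast list was 205 to 207 CPM in the naïve and 734 to 767 in the primed state of H9. From naïve to primed, 3 of its 11 tested genes rose and 4 fell, against 25.5% and 22.3% of all genes. THY1 alone made up a large part of the primed sum, so the sum is no measure of fibroblasts or of feeder reads. By the study's methods both replicates of a stage were collected together, and the labels name no batch.

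Collagen transcripts made up a larger part of the transcriptome in late gastruloids than in naïve ESCs of either species. As a share of all TPM they took 0.0617 ± 0.00264% in naïve H9 ESCs (mean ± SD, n = 2 in every group), 0.109 ± 0.00537% in primed H9 ESCs, 0.125 ± 0.0041% in primed RUES2-GLR ESCs, 0.219 ± 0.00512% in early and 0.226 ± 0.0347% in late RA-gastruloids. In mouse the share was 0.0299 ± 0.000237% in naïve ESCs, 0.0715 ± 0.00389% in EpiLCs, 0.0567 ± 0.00102% in early and 0.117 ± 0.000488% in late gastruloids. The 2 human gastruloid stages overlapped in their spread, and EpiLCs stood above early mouse gastruloids by more than the SD of either. The rise from RUES2-GLR ESCs to early RA-gastruloids depended on the scale. As a share of counts, without exon lengths, it went from 0.377 ± 0.0129% to 0.46 ± 0.0078%. Summed CPM after TMM scaling was 4266 and 4519 in RUES2-GLR ESCs against 4349 and 4461 in early RA-gastruloids. With 2 libraries a group, an exact permutation test of a single share cannot go below p = 0.333, so no test was made of it. A single gene carried much of the early mouse signal: without Col18a1 the share was 0.00605% in naïve ESCs, 0.00603% in EpiLCs, 0.00524% in early and 0.0879% in late gastruloids.

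Most collagen genes were detected at some stage, and mouse late gastruloids stood apart in how many were. At least 1 CPM in both libraries was reached by 28 of 44 members in naïve H9 ESCs, 33 in primed H9 ESCs, 32 in primed RUES2-GLR ESCs, 32 in early and 30 in late RA-gastruloids. In mouse it was reached by 11 of 43 members in naïve ESCs, 21 in EpiLCs, 19 in early and 29 in late gastruloids. At 100 CPM or more in both libraries there were 5, 8, 11, 13 and 11 human members in the same order, and 1, 1, 1 and 7 in mouse. Naïve mouse ESCs, EpiLCs and early gastruloids each had Col18a1 as their single member at that level. The filter on low counts was passed by 38 human and 33 mouse members, and 6 human and 7 mouse members did not reach a mean of 1 CPM in any group.

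**Figure D1:**
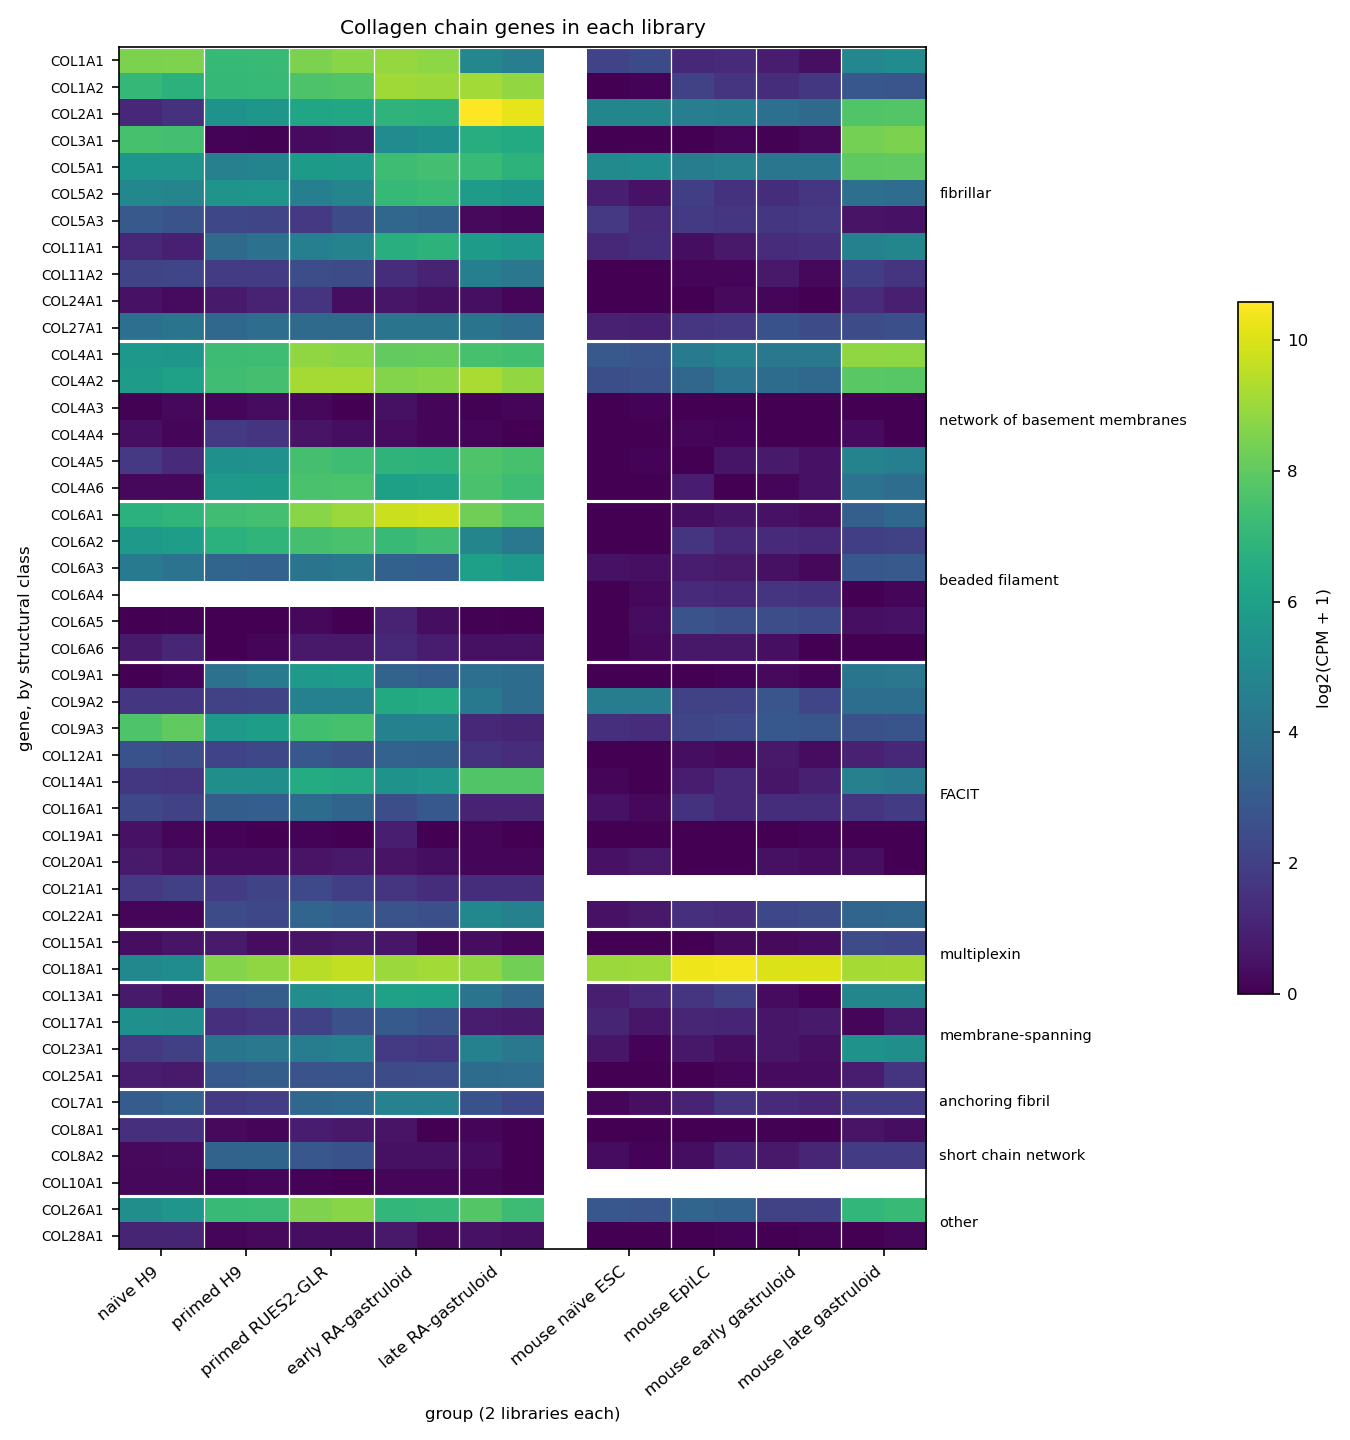
Heat map of log2(CPM + 1) for each collagen chain gene (down) in each of the 18 libraries (across), ordered by structural class, with white cells for a gene that the species' table does not hold. The 2 late mouse gastruloid columns are the most filled of the mouse block, and in human COL3A1 is high in the naïve H9 columns and the gastruloid columns but not in the primed ones.

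The make-up by class differed between groups (the plot of summed TPM by class). Fibrillar chains took 44.2 ± 3.44% of collagen TPM in naïve H9 ESCs, 18.3 ± 0.302% in primed H9 ESCs, 14.8 ± 0.244% in primed RUES2-GLR ESCs, 30.5 ± 1.08% in early and 52.1 ± 0.494% in late RA-gastruloids. Beaded-filament chains took 33.3 ± 0.858% in early RA-gastruloids and 9.77 ± 0.41% in late ones. The FACIT share was highest in naïve H9 ESCs, at 24.5 ± 2.45%, where COL9A3 was the leading collagen by TPM. In mouse, multiplexins, which here means Col18a1 almost alone, took 79.7 ± 0.324% in naïve ESCs, 91.6 ± 0.199% in EpiLCs, 90.8 ± 0.565% in early and 25.3 ± 0.0384% in late gastruloids. In the late mouse gastruloids fibrillar chains took 29.7 ± 0.595% and type IV chains 30.6 ± 0.759%.

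**Figure D2:**
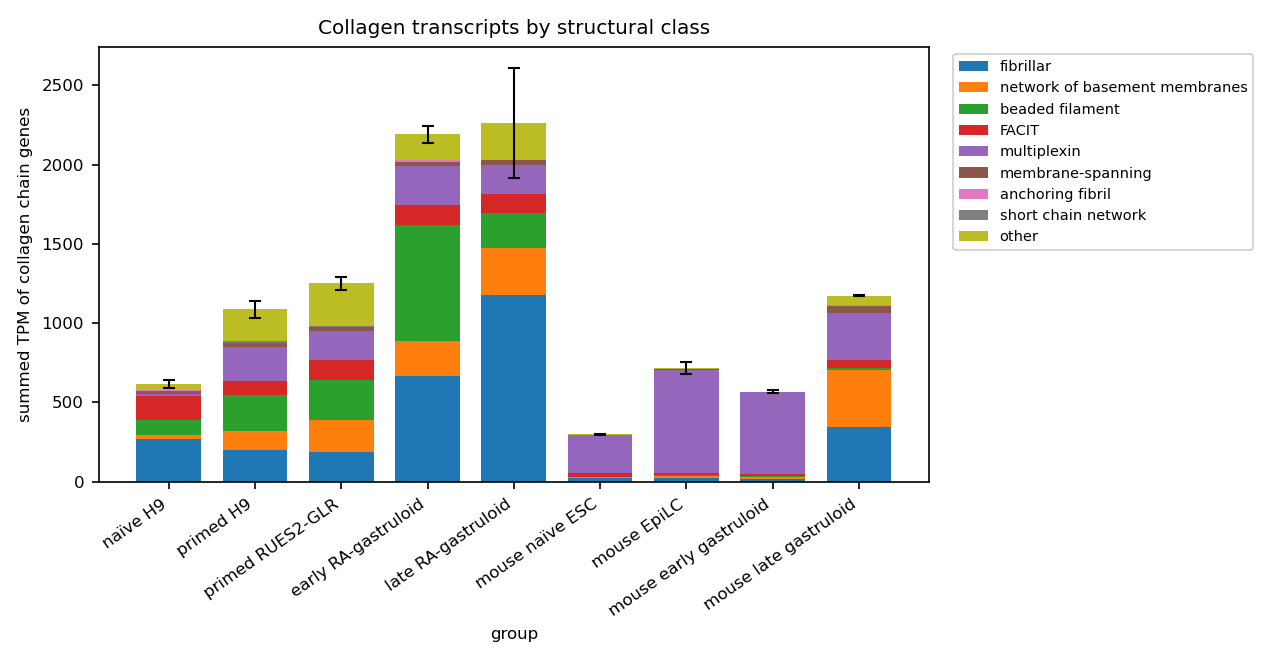
Stacked bars of summed TPM of the collagen chain genes in each group (mean of 2 libraries), split by structural class, with the SD of the sum as the error bar. Multiplexin is the largest class in the mouse bars before the late stage, at 79.7% in naïve ESCs, and the late RA-gastruloid bar is mostly fibrillar.

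Naïve H9 and primed H9 ESCs are the same line in different pluripotent states, and 19 of the 38 tested members were higher and 8 lower in the primed state, against 25.5% of all genes tested that were higher and 22.3% that were lower. All 5 tested type IV chains rose. From primed H9 to primed RUES2-GLR ESCs, 2 lines in the same state, 17 members were higher and 1 was lower, against 17.1% and 12.2% of all genes. The median log2 fold change over all genes was -0.12 there under TMM scaling and 0.00 under DESeq2's size factors, and that of the members was 0.90. The size of the line difference depended on the scale. Summed collagen CPM was 1785 and 1934 in primed H9 and 4266 and 4519 in RUES2-GLR ESCs, but summed TPM was 1089 ± 53.7 and 1252 ± 41.0 (mean ± SD). In TPM, type IV chains were at 123 ± 3.0 and 201 ± 10.7. Fibrillar chains were at 199 ± 6.54 and 186 ± 9.13, and multiplexins at 218 ± 19.3 and 187 ± 8.09. Why the scales differ was not tested. The summed fibroblast markers were 734 to 767 CPM in primed H9 and 1733 to 1993 CPM in primed RUES2-GLR ESCs. DCN, LUM and DPT were at 0 in both, and TWIST2 in RUES2-GLR ESCs, so the sums are no measure of fibroblasts. Of 11 tested, 3 rose and 1 fell, with FBLN1 at 236 and 250.2 CPM against 1016 and 1206. The part of these markers in the difference was not tested.

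From RUES2-GLR ESCs to early RA-gastruloids 8 members rose and 10 fell, against 12.0% and 17.6% of all genes, and 6 of the 8 that rose were fibrillar. Between the 2 gastruloid stages 9 rose and 14 fell, against 11.8% and 13.2%. Mouse naïve ESCs and EpiLCs differed in 17 members that rose and 3 that fell of 33 tested, against 17.7% and 12.1% of all genes. EpiLCs and early gastruloids differed in 3 members higher and 3 lower, against 11.7% and 9.24%, and naïve ESCs and early gastruloids in 20 higher and 4 lower, against 16.2% and 6.81%. The count of 20 was 13 in a fit of the compared groups alone and 13 without naïve mouse ESCs replicate 2, and 7 tested members had no count in either naïve library. From early to late mouse gastruloids 24 members rose and 3 fell, against 20.1% and 19.1% of all genes, and the median log2 fold change of the members was 3.89. Col3a1, Col4a6, Col6a1, Col9a1, Col11a2 and Col15a1 were under 1 CPM in every earlier library and passed the filter on low counts through the late ones. Their rise followed in part from the way they entered the test, and they weigh in both the count and the median. Adjacent comparisons share a group, so their counts are not independent.

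Type I collagen, the main fibre of bone, skin and tendon, is built from the products of COL1A1 (ENSG00000108821, chromosome 17:50184101-50201632, minus strand, GRCh38) and COL1A2 (ENSG00000164692, chromosome 7:94394895-94431227, plus strand). COL1A1 was at 361 and 371 CPM in naïve H9, 136 and 138 in primed H9, 361 and 415 in RUES2-GLR, 482 and 441 in early RA-gastruloids and 28.7 and 22.2 in late ones. It fell from naïve to primed H9 ESCs (log2 fold change -1.42 ± 0.11, adjusted p = 5.51e-13) and far more from early to late RA-gastruloids (-4.16 ± 0.13, adjusted p = 2.41e-22; ± is the SE throughout). COL1A2 was at 131 and 111 CPM in naïve H9, 129 and 137 in primed H9, 198 and 210.0 in RUES2-GLR, 538 and 509.6 in early RA-gastruloids and 557 and 469 in late ones. It rose from RUES2-GLR ESCs to early RA-gastruloids (1.37 ± 0.11, adjusted p = 4.67e-12) and was not called between the gastruloid stages (-0.03 ± 0.11, adjusted p = 0.841). The partner chains therefore parted in late RA-gastruloids. The ratio of COL1A1 to COL1A2 in TPM was 3.67 ± 0.511 in naïve H9 ESCs, 1.24 ± 0.0313 in primed H9 ESCs, 2.28 ± 0.128 in primed RUES2-GLR ESCs, 1.06 ± 0.0256 in early and 0.0593 ± 0.00353 in late RA-gastruloids (mean ± SD of 2 libraries).

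The mouse chains of type I parted the other way. Col1a1 (chromosome 11:94827050-94843868, plus strand, GRCm39) was at 3.34 and 4.21 CPM in naïve ESCs, 1.33 and 1.45 in EpiLCs, 0.74 and 0.351 in early gastruloids and 28.8 and 33.9 in late ones. Col1a2 was at 0 and 0.0896 CPM in naïve ESCs, 3.1 and 2.1 in EpiLCs, 1.58 and 2.28 in early gastruloids and 6.41 and 5.95 in late ones. Col1a1 fell from naïve ESCs to EpiLCs (-1.45 ± 0.32, adjusted p = 9.56e-05) and from EpiLCs to early gastruloids (-1.22 ± 0.44, adjusted p = 0.0130). The second of these calls was lost without EpiLCs replicate 2 (-1.14) and without early mouse gastruloids replicate 2 (-0.92). Both chains rose in late gastruloids, Col1a1 with a log2 fold change of 5.68 ± 0.23, adjusted p = 1.00e-29 and Col1a2 with 1.74 ± 0.29, adjusted p = 5.16e-07. Their TPM ratio in late gastruloids was 9.65 ± 1.62, and their CPM ratio was 5.10. Over both libraries Col1a2 had a single count in naïve ESCs, and the level in EpiLCs stood at a ratio of 44.2 with a 95% counting interval of 7.59 to 1778, and that in early gastruloids at a ratio of 33.6 with a 95% counting interval of 5.79 to 1349 (these intervals cover counting error only). Both were called higher than in naïve ESCs.

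**Figure D3:**
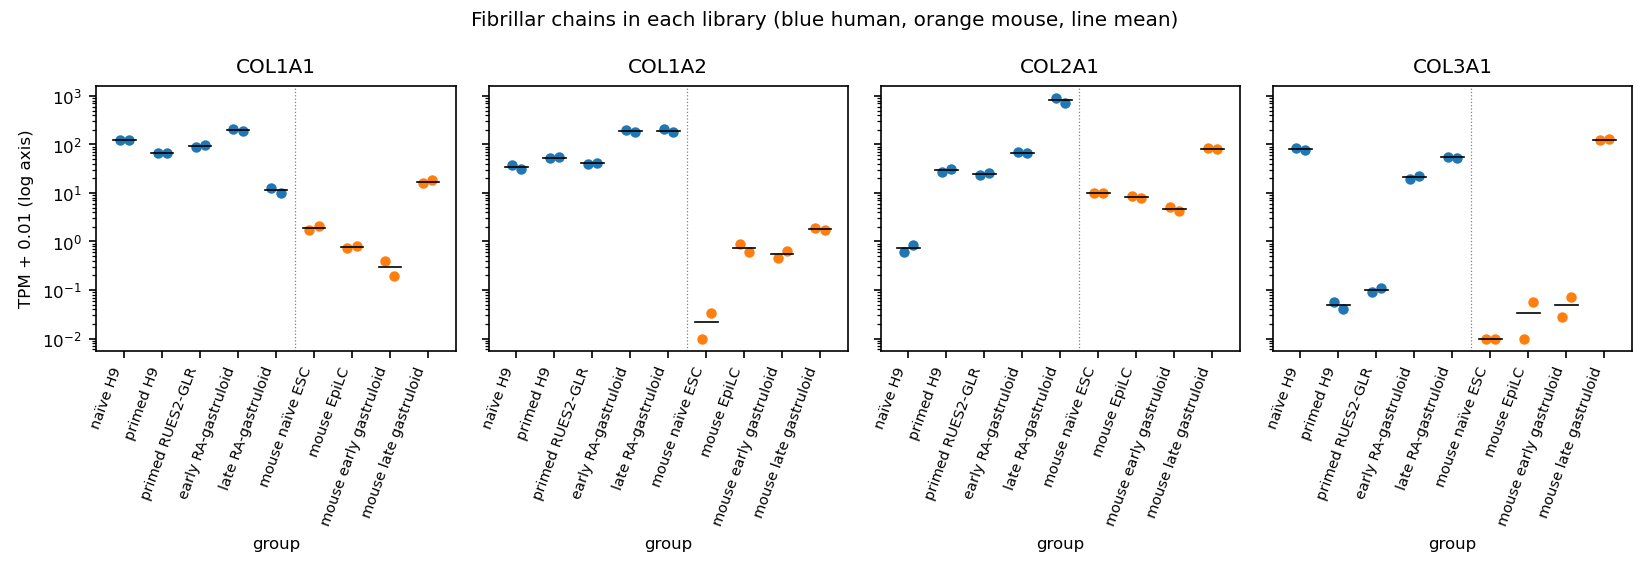
TPM + 0.01 on a log axis of COL1A1, COL1A2, COL2A1 and COL3A1 and their mouse counterparts in each library (points) of the 9 groups. In late RA-gastruloids COL1A1 lies below COL1A2 while COL2A1 is the highest of the 4, and in late mouse gastruloids Col1a1 lies above Col1a2 and Col3a1 is far above its earlier levels.

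COL2A1 (chromosome 12:47972967-48004554, minus strand), the main collagen of cartilage and of the notochordal sheath, was lowest in naïve H9 ESCs and became the leading collagen of late RA-gastruloids. It was at 1.3 and 1.83 CPM in naïve H9, 41.8 and 47 in primed H9, 72.6 and 81.1 in RUES2-GLR, 117 and 113 in early RA-gastruloids and 1525 and 1167 in late ones. The rise from naïve to primed H9 ESCs had a log2 fold change of 4.83 ± 0.18, adjusted p = 1.15e-20, and that from early to late RA-gastruloids 3.55 ± 0.13, adjusted p = 9.40e-21. Its late level was 810.3 ± 135 TPM (mean ± SD, n = 2), against 54.8 ± 1.88 for COL3A1 and 190.4 ± 18.9 for COL1A2. Mouse Col2a1 was at 28.2 and 28.2 CPM in naïve ESCs, 22.3 and 20.5 in EpiLCs, 13.4 and 11.6 in early gastruloids and 210.0 and 211 in late ones. It fell from naïve ESCs to early gastruloids (-1.15 ± 0.11, adjusted p = 2.44e-14) and rose to the late stage (4.05 ± 0.08, adjusted p = 1.06e-44). Of the notochord and sclerotome markers, SOX9 was at 19.9 and 24.5 CPM and ACAN at 1.55 and 1.42 in late RA-gastruloids, and TBXT made up most of the list's sum in early ones, at 124 and 128. The summed list was 157 to 159 CPM in early RA-gastruloids and 31.0 to 32.4 in late ones, with NOTO at 0 in the late ones, and its part in the rise of COL2A1 was not tested.

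COL3A1 (chromosome 2:188974373-189012746, plus strand), whose product forms fibres with type I in vessels and soft tissue, spanned the widest range of the human members by fold between group means. Of its mouse transcript windows 44.4% aligned to it, as described below, and the part of feeder reads in its naïve H9 level was not tested. It was at 181 and 171 CPM in naïve H9, 0.0698 and 0.0476 in primed H9, 0.245 and 0.318 in RUES2-GLR, 33.6 and 39.1 in early RA-gastruloids and 96 and 88.6 in late ones. Only 3 counts were seen in the 2 primed H9 libraries against 6454 in naïve H9 ESCs, a ratio of 3309 with a 95% counting interval of 1132 to 16050.5, and the fall was called (-11.49 ± 0.24, adjusted p = 8.32e-27). It rose from RUES2-GLR ESCs to early RA-gastruloids, with 4 counts against 739 (a ratio of 139 with a 95% counting interval of 54.2 to 513), and again to late ones (1.35 ± 0.12, adjusted p = 2.96e-11). Mouse Col3a1 (chromosome 1:45350698-45388866, plus strand) was at 0 and 0 CPM in naïve ESCs, 0 and 0.131 in EpiLCs, 0.0493 and 0.176 in early gastruloids and 329 and 361 in late ones. Its 3 counts in early gastruloids stood against 5250 in late ones, a ratio of 3620.1 with a 95% counting interval of 1238 to 17559.8, with an adjusted p of 9.27e-52. Both naïve mouse ESC libraries were at 0, whereas both naïve H9 libraries held the gene.

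Type V and type XI chains, which set the width of type I and type II fibrils, did not all move the same way. From RUES2-GLR ESCs to early RA-gastruloids COL5A1, COL5A2, COL5A3 and COL11A1 rose, whereas COL11A2 fell (-1.79 ± 0.34, adjusted p = 3.79e-05). COL5A1 was at 45.6 and 44.1 CPM in naïve H9, 23.5 and 26.2 in primed H9, 53.1 and 50.3 in RUES2-GLR, 157 and 168 in early RA-gastruloids and 139.8 and 115 in late ones. COL5A2 was at 29.8 and 27.1 CPM in naïve H9, 43 and 44.6 in primed H9, 23 and 27.4 in RUES2-GLR, 135 and 146 in early RA-gastruloids and 54.5 and 47.9 in late ones. COL5A2 rose with a log2 fold change of 2.52 ± 0.13, adjusted p = 1.83e-16 from RUES2-GLR ESCs to early RA-gastruloids and COL5A1 with 1.64 ± 0.12, adjusted p = 7.73e-13, and COL5A2 then fell (-1.45 ± 0.12, adjusted p = 4.25e-12). COL5A2 ends 19151 bases from the end of COL3A1 on chromosome 2, and both rose in the early gastruloids but moved apart in the late ones. COL5A3 was at 6.68 and 5.44 CPM in naïve H9, 3.84 and 3.69 in primed H9, 2.37 and 4.45 in RUES2-GLR, 10.2 and 9.17 in early RA-gastruloids and 0.194 and 0.102 in late ones. Its fall to the late stage was the largest of the members with at least 1 CPM in the higher group (-5.82 ± 0.39, adjusted p = 7.59e-14). COL11A1 was at 1.25 and 0.916 CPM in naïve H9, 11.5 and 14.2 in primed H9, 22.5 and 25.5 in RUES2-GLR, 101 and 115 in early RA-gastruloids and 54.4 and 46 in late ones. It rose from RUES2-GLR ESCs to early RA-gastruloids (2.20 ± 0.15, adjusted p = 4.26e-14), and its call in the fall to late ones (-1.09 ± 0.13, adjusted p = 1.13e-08) was lost without early RA-gastruloids replicate 2 (-1.0) and without late RA-gastruloids replicate 2 (-0.97). COL11A2 was at 3.5 and 3.66 CPM in naïve H9, 2.72 and 2.55 in primed H9, 4.66 and 4.45 in RUES2-GLR, 1.63 and 1.01 in early RA-gastruloids and 22.8 and 17.1 in late ones. It had the largest rise from early to late (3.92 ± 0.25, adjusted p = 2.49e-14).

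In mouse, Col5a1 was at 32.3 and 34.4 CPM in naïve ESCs, 20.5 and 23.5 in EpiLCs, 17 and 16.9 in early gastruloids and 249 and 252 in late ones. Col5a2 was at 0.836 and 0.448 CPM in naïve ESCs, 2.95 and 1.9 in EpiLCs, 1.63 and 2.2 in early gastruloids and 14.1 and 12.9 in late ones. Col5a3 was at 2.37 and 1.43 CPM in naïve ESCs, 2.51 and 2.17 in EpiLCs, 2.22 and 2.37 in early gastruloids and 0.466 and 0.446 in late ones. The late libraries were the highest for Col5a1 and Col5a2 and not for Col5a3. Late gastruloids had more Col5a1 (3.89 ± 0.08, adjusted p = 3.33e-45) and Col5a2 (2.87 ± 0.24, adjusted p = 2.62e-16) and less Col5a3 (-2.29 ± 0.52, adjusted p = 8.76e-05) than early ones. COL5A3 and Col5a3 thus fell at the late stage in both species. The ratio of Col5a1 to Col5a2 in TPM was 20.8 ± 1.47 in late mouse gastruloids and 1.63 ± 0.0777 in late RA-gastruloids. Col11a1 was at 1.25 and 1.61 CPM in naïve ESCs, 0.295 and 0.657 in EpiLCs, 1.53 and 1.67 in early gastruloids and 24.2 and 27.6 in late ones. It fell from naïve ESCs to EpiLCs (-1.42 ± 0.50, adjusted p = 0.0111), a call lost without EpiLCs replicate 1 (-1.15) and without naïve mouse ESCs replicate 2 (-1.19). It then rose to early (1.52 ± 0.44, adjusted p = 0.00255) and late gastruloids (4.02 ± 0.21, adjusted p = 2.44e-25). Col27a1 was at 0.976 and 0.896 CPM in naïve ESCs, 2.21 and 2.36 in EpiLCs, 5.28 and 4.3 in early gastruloids and 4.54 and 4.9 in late ones. It rose from EpiLCs to early gastruloids (1.07 ± 0.26, adjusted p = 3.70e-04), a call lost under DESeq2 (1.04) and without early mouse gastruloids replicate 1 (0.89).

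Type IV transcripts differed between states in level and in which chains were present. COL4A1 (ENSG00000187498) and COL4A2 make the chains of nearly all basement membranes. COL4A1 was at 49.2 and 47 CPM in naïve H9, 152 and 154 in primed H9, 452 and 417 in RUES2-GLR, 259 and 267 in early RA-gastruloids and 181 and 163 in late ones. COL4A2 was at 54.3 and 65 CPM in naïve H9, 159 and 172 in primed H9, 575 and 565 in RUES2-GLR, 390.0 and 419 in early RA-gastruloids and 598 and 463 in late ones. Both rose from naïve to primed H9 ESCs (log2 fold change 1.67 ± 0.11, adjusted p = 4.28e-15 and 1.48 ± 0.12, adjusted p = 1.18e-12) and were higher again in RUES2-GLR ESCs (1.51 ± 0.10 and 1.78 ± 0.12). Neither was called between the gastruloid stages (-0.61 ± 0.10, adjusted p = 6.62e-06, and 0.39 ± 0.11, adjusted p = 0.00407). Their TPM ratio was 1.0 ± 0.0446 in primed RUES2-GLR ESCs, 0.856 ± 0.0251 in early and 0.43 ± 0.0454 in late RA-gastruloids. Their RefSeq starts lie at the ends of the 126 bases printed above.

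COL4A5 and COL4A6, the X-linked chains that build a basement membrane of epithelia and smooth muscle, were low in naïve H9 ESCs. COL4A5 was at 2.35 and 1.37 CPM in naïve H9, 38.5 and 40.1 in primed H9, 174 and 157 in RUES2-GLR, 116 and 114 in early RA-gastruloids and 203 and 182 in late ones. COL4A6 was at 0.156 and 0.172 CPM in naïve H9, 50.2 and 53.2 in primed H9, 185 and 192 in RUES2-GLR, 64.1 and 66.8 in early RA-gastruloids and 186 and 154 in late ones. From naïve to primed H9 ESCs COL4A6 showed the largest rise of all members (8.24 ± 0.24, adjusted p = 1.79e-23), which by counts was a ratio of 320.0 with a 95% counting interval of 147 to 873, and COL4A5 rose with it (4.38 ± 0.17, adjusted p = 2.71e-20). Both were higher in RUES2-GLR than in H9 primed ESCs, COL4A5 with 2.08 ± 0.12, adjusted p = 3.30e-15 and COL4A6 with 1.86 ± 0.11, adjusted p = 9.80e-15. COL4A6 then fell to early RA-gastruloids (-1.52 ± 0.12, adjusted p = 9.77e-13) and rose to late ones (1.38 ± 0.11, adjusted p = 6.97e-12), whereas the changes of COL4A5 were -0.53 ± 0.12, adjusted p = 2.76e-04, and 0.75 ± 0.11, adjusted p = 2.09e-06, neither called. Of the remaining pair, COL4A3 stayed at or below 0.383 CPM in every human library. COL4A4 was at 0.365 and 0.115 CPM in naïve H9, 2.44 and 2.02 in primed H9, 0.491 and 0.318 in RUES2-GLR, 0.287 and 0.101 in early RA-gastruloids and 0.145 and 0 in late ones. It was the single member lower in the RUES2-GLR line (-2.25 ± 0.56, adjusted p = 8.80e-04), a call lost under DESeq2 (-2.25) and without RUES2-GLR ESCs replicate 1 (-2.62).

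In mouse, type IV chains were low until the late stage. Col4a1 was at 6.69 and 6.0 CPM in naïve ESCs, 18.9 and 24.4 in EpiLCs, 18 and 17.8 in early gastruloids and 445 and 443 in late ones. Col4a2 was at 4.88 and 5.11 CPM in naïve ESCs, 10.2 and 15.3 in EpiLCs, 12.4 and 10.7 in early gastruloids and 234 and 229 in late ones. Both rose from naïve ESCs to EpiLCs (1.83 ± 0.14, adjusted p = 8.89e-18, and 1.43 ± 0.17, adjusted p = 1.71e-10) and much more from early to late gastruloids (4.63 ± 0.08, adjusted p = 3.32e-49, and 4.30 ± 0.09, adjusted p = 3.41e-44). Late Col4a1 reached 214 ± 4.04 TPM, next to 295 ± 1.41 for Col18a1 and 126 ± 6.13 for Col3a1. Col4a5 was at 0 and 0.0896 CPM in naïve ESCs, 0 and 0.526 in EpiLCs, 0.69 and 0.439 in early gastruloids and 25.3 and 22.6 in late ones. Col4a6 was at 0 and 0 CPM in naïve ESCs, 0.738 and 0 in EpiLCs, 0.148 and 0.439 in early gastruloids and 15.1 and 12.8 in late ones, with log2 fold changes from early to late of 5.30 ± 0.27, adjusted p = 1.39e-25 and 5.73 ± 0.39, adjusted p = 8.04e-20. Markers of other cell types moved with these chains. All 9 tested of 10 extraembryonic endoderm markers rose at the same step, from a sum of 9.75 to 10.4 CPM to 649 to 660 CPM, with Ttr, Apoa1 and Afp at 0 in both early libraries, Gata6 at 178 and 172 CPM and Sox17 at 27.4 and 28.2 in the late ones. Of 8 endothelial markers 5 rose and 1 fell, from a sum of 162 to 165 CPM to 289 to 295 CPM, with Emcn at 0 before and Cdh5 at 45.6 and 50.8 after. Over all genes, 20.1% rose and 19.1% fell at this step. These lists are not particular to the cell types they are named for: the study names Sox17 as an endoderm marker and links targets of Gata6 to heart development. Whether the named cell types were present, and their part in the rise of the type IV chains, was not tested.

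Type XVIII collagen, a basement membrane proteoglycan whose end fragment is endostatin, was the main collagen of early mouse cells. Col18a1 (chromosome 10:76888012-77002382, minus strand) was at 502 and 515 CPM in naïve ESCs, 1259.9 and 1342 in EpiLCs, 1038 and 1036 in early gastruloids and 570.1 and 579.8 in late ones. It rose from naïve ESCs to EpiLCs (1.36 ± 0.05, adjusted p = 1.37e-32), and the drop to late gastruloids was not past the fold threshold (-0.85 ± 0.05, adjusted p = 1.65e-23). In human, COL18A1 (chromosome 21:45405165-45513720, plus strand) was at 30 and 34.4 CPM in naïve H9, 393 and 451 in primed H9, 701 and 773 in RUES2-GLR, 510.1 and 546 in early RA-gastruloids and 453 and 321 in late ones, and it rose from naïve to primed H9 ESCs (3.71 ± 0.14, adjusted p = 6.38e-21). The naïve cells of the 2 species differed in it, at 11.7 ± 0.953 TPM in naïve H9 and 238 ± 0.924 in naïve mouse ESCs, values from 2 separately normalised tables that were not tested against each other. Of the exon bases of COL18A1, 18.5% overlap SLC19A1 on the other strand, and since the counting used no strand, reads there could not be assigned to either.

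Type VI collagen, a microfibril that links cells to the surrounding matrix, was led by COL6A1. COL6A1 was at 107 and 122 CPM in naïve H9, 160.5 and 170.3 in primed H9, 417 and 505 in RUES2-GLR, 847 and 899 in early RA-gastruloids and 309.7 and 228 in late ones. COL6A2 was at 51.2 and 60.5 CPM in naïve H9, 106 and 121 in primed H9, 175 and 183 in RUES2-GLR, 143 and 162 in early RA-gastruloids and 26.7 and 17.9 in late ones. COL6A3, the longest of the classical chains, was at 20.2 and 15.4 CPM in naïve H9, 9.98 and 9.16 in primed H9, 15.9 and 17.8 in RUES2-GLR, 8.81 and 8.06 in early RA-gastruloids and 61 and 48.5 in late ones. From early to late RA-gastruloids COL6A1 (-1.70 ± 0.12, adjusted p = 3.13e-13) and COL6A2 (-2.74 ± 0.14, adjusted p = 1.22e-16) fell while COL6A3 rose (2.70 ± 0.17, adjusted p = 6.99e-15). The chains of the class thus moved in opposite directions. In TPM, COL6A1 stood to COL6A3 as 404 ± 42 in early RA-gastruloids and 19 ± 1.02 in late ones. In CPM, without the deposited exon lengths of 5536 and 21516 bases, the ratios were 104 and 4.89. The rise of COL6A2 from naïve to primed H9 ESCs (1.03 ± 0.13, adjusted p = 2.24e-08) was at the threshold and was lost under DESeq2 (0.92), under DESeq2 size factors in edgeR (0.91), under no filter on low counts (1.00), without naïve H9 ESCs replicate 1 (0.86) and without primed H9 ESCs replicate 2 (0.95).

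COL6A6, a chain that can take the place of COL6A3, was at 0.678 and 1.2 CPM in naïve H9, 0 and 0.0952 in primed H9, 0.654 and 0.636 in RUES2-GLR, 1.34 and 0.806 in early RA-gastruloids and 0.387 and 0.407 in late ones. It fell from naïve to primed H9 ESCs (-3.59 ± 0.66, adjusted p = 1.54e-05). It was higher in RUES2-GLR than in H9 primed ESCs (3.08 ± 0.87, adjusted p = 0.00318), a call lost without RUES2-GLR ESCs replicate 1 (3.18), and its fall to late RA-gastruloids (-1.44 ± 0.59, adjusted p = 0.0425) was lost under DESeq2 (-1.47), under no filter on low counts (-1.38), under replicate block (-1.41), without early RA-gastruloids replicate 1 (-1.02), without late RA-gastruloids replicate 1 (-1.39) and without late RA-gastruloids replicate 2 (-1.45). These levels rested on few counts. Mouse Col6a1 was at 0 and 0 CPM in naïve ESCs, 0.295 and 0.526 in EpiLCs, 0.444 and 0.263 in early gastruloids and 8.16 and 10.6 in late ones. Col6a2 was at 0 and 0 CPM in naïve ESCs, 2.07 and 1.31 in EpiLCs, 1.38 and 1.32 in early gastruloids and 2.91 and 3.12 in late ones. Col6a3 was at 0.418 and 0.358 CPM in naïve ESCs, 0.738 and 0.723 in EpiLCs, 0.394 and 0.176 in early gastruloids and 6.41 and 6.84 in late ones. All 3 were highest in late gastruloids. Col6a2 had no count in naïve ESCs and was called in EpiLCs, where it was at least 4.92-fold higher, and in early gastruloids, at least 3.93-fold higher, against a floor of 3 counts per library. Col6a1 rose from early to late gastruloids (4.58 ± 0.37, adjusted p = 1.17e-16) and so did Col6a3 (4.35 ± 0.41, adjusted p = 2.12e-14). The other chains went the opposite way. Col6a5 was at 0 and 0.269 CPM in naïve ESCs, 5.46 and 4.86 in EpiLCs, 4.73 and 4.04 in early gastruloids and 0.35 and 0.446 in late ones. Col6a4 was at 0 and 0.179 CPM in naïve ESCs, 1.48 and 1.25 in EpiLCs, 2.02 and 1.93 in early gastruloids and 0 and 0.149 in late ones. Col6a5 was higher in EpiLCs than in naïve ESCs (a ratio of 30.8 with a 95% counting interval of 10.3 to 152) and in early gastruloids (a ratio of 27.4 with a 95% counting interval of 9.19 to 134), and both fell from early to late gastruloids, Col6a5 with -3.47 ± 0.46, adjusted p = 1.67e-09 and Col6a4 with a ratio of 30.5 with a 95% counting interval of 5.27 to 1222 (adjusted p = 2.04e-06).

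Type IX chains, a FACIT of cartilage that binds type II fibrils, did not move together. COL9A1 was at 0 and 0.115 CPM in naïve H9, 14.8 and 19.9 in primed H9, 52.2 and 55.7 in RUES2-GLR, 9.19 and 8.06 in early RA-gastruloids and 13.7 and 12.4 in late ones. COL9A2 was at 2.19 and 2.18 CPM in naïve H9, 3.14 and 3.5 in primed H9, 23.9 and 23.9 in RUES2-GLR, 85.8 and 90.5 in early RA-gastruloids and 18.5 and 12.5 in late ones. COL9A3 was at 203 and 257 CPM in naïve H9, 50.7 and 58.1 in primed H9, 167 and 179 in RUES2-GLR, 24.4 and 24.3 in early RA-gastruloids and 1.26 and 1.12 in late ones. COL9A1 rose from naïve to primed H9 ESCs (8.15 ± 0.37, adjusted p = 1.17e-18), which by counts was a ratio of 341 with a 95% counting interval of 94.2 to 2819, while COL9A3 fell (-2.07 ± 0.12, adjusted p = 2.86e-16). COL9A2 was the member with the largest rise from H9 to RUES2-GLR primed ESCs (2.82 ± 0.18, adjusted p = 3.16e-14). In early RA-gastruloids COL9A2 rose further (1.89 ± 0.15, adjusted p = 3.42e-12) whereas COL9A1 (-2.63 ± 0.18, adjusted p = 6.42e-14) and COL9A3 (-2.82 ± 0.13, adjusted p = 8.62e-18) fell. COL9A3 fell again to the late stage (-4.32 ± 0.21, adjusted p = 2.77e-17), where COL2A1 was at its highest. In mouse, Col9a2 was at 21.2 and 20.9 CPM in naïve ESCs, 3.1 and 3.15 in EpiLCs, 5.97 and 3.6 in early gastruloids and 13.3 and 13.2 in late ones. Col9a1 was at 0 and 0 CPM in naïve ESCs, 0 and 0.0657 in EpiLCs, 0.197 and 0.0878 in early gastruloids and 16.1 and 17.4 in late ones. Col9a2 fell from naïve ESCs to EpiLCs (-2.74 ± 0.19, adjusted p = 7.23e-19) and was lower in early gastruloids than in naïve ESCs (-2.05 ± 0.16, adjusted p = 1.03e-16), and Col9a1 rose from early to late (6.63 ± 0.36, adjusted p = 6.61e-24).

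Among the other FACITs, COL14A1, which binds fibrils in skin and tendon, was at 2.3 and 2.12 CPM in naïve H9, 37.8 and 37.9 in primed H9, 88.8 and 83.4 in RUES2-GLR, 41.5 and 45.4 in early RA-gastruloids and 208 and 205 in late ones. It rose in the steps from naïve to primed H9 ESCs (4.09 ± 0.15, adjusted p = 9.25e-21) and from early to late RA-gastruloids (2.25 ± 0.11, adjusted p = 4.79e-17). COL12A1 fell from early to late RA-gastruloids (-2.33 ± 0.24, adjusted p = 1.43e-09) from 9.0 and 8.77 CPM to 1.89 and 1.53. COL22A1, found at the junction of muscle and tendon, was at 0.104 and 0.115 CPM in naïve H9, 4.47 and 3.95 in primed H9, 10.1 and 7.95 in RUES2-GLR, 5.55 and 4.94 in early RA-gastruloids and 29.5 and 23.9 in late ones. It rose from early to late (2.36 ± 0.19, adjusted p = 3.03e-12). Mouse Col22a1 was at 0.418 and 0.627 CPM in naïve ESCs, 1.77 and 1.51 in EpiLCs, 3.94 and 4.48 in early gastruloids and 9.9 and 10.7 in late ones. It rose from EpiLCs to early gastruloids (1.38 ± 0.29, adjusted p = 4.65e-05). The late stage had the highest mean of COL14A1 and of COL22A1 in human, and of Col22a1 in mouse.

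All 4 membrane-spanning collagens differed between naïve and primed H9 ESCs, 3 of them higher and 1 lower in the primed state. COL17A1, which anchors epithelial cells at hemidesmosomes, was at 38.4 and 35.8 CPM in naïve H9, 1.75 and 1.98 in primed H9, 3.19 and 5.09 in RUES2-GLR, 6.89 and 5.75 in early RA-gastruloids and 0.726 and 0.712 in late ones. It fell from naïve to primed H9 ESCs (-4.28 ± 0.18, adjusted p = 1.64e-19) and from early to late RA-gastruloids (-3.12 ± 0.30, adjusted p = 1.98e-10). COL13A1, a chain of cell junctions with the matrix, was at 0.678 and 0.344 CPM in naïve H9, 6.56 and 7.57 in primed H9, 35.3 and 39.8 in RUES2-GLR, 64.7 and 61.9 in early RA-gastruloids and 15.6 and 10.9 in late ones. COL23A1 was at 2.4 and 3.03 CPM in naïve H9, 16.1 and 17.9 in primed H9, 21.3 and 23.9 in RUES2-GLR, 2.49 and 2.22 in early RA-gastruloids and 24.3 and 17.6 in late ones. Both rose from naïve to primed H9 ESCs, COL13A1 with 3.77 ± 0.28, adjusted p = 2.49e-13 and COL23A1 with 2.66 ± 0.19, adjusted p = 9.07e-14. COL13A1 was higher in RUES2-GLR than in H9 ESCs (2.36 ± 0.17, adjusted p = 2.13e-13) and fell in late RA-gastruloids (-2.22 ± 0.15, adjusted p = 1.16e-13). COL23A1 fell in early RA-gastruloids (-3.23 ± 0.23, adjusted p = 3.60e-13) and rose back in late ones (3.17 ± 0.22, adjusted p = 1.74e-13). Mouse Col13a1 was at 0.836 and 1.25 CPM in naïve ESCs, 2.07 and 2.96 in EpiLCs, 0.247 and 0.0878 in early gastruloids and 27.7 and 28.2 in late ones. It fell from EpiLCs to early gastruloids (-3.74 ± 0.48, adjusted p = 8.50e-10), was lower in early gastruloids than in naïve ESCs (-2.45 ± 0.62, adjusted p = 4.95e-04), and rose from early to late (7.12 ± 0.29, adjusted p = 7.11e-30). Late COL13A1 and Col13a1 therefore moved in opposite directions. Mouse Col23a1 rose to 40.8 and 37 CPM in late gastruloids (6.33 ± 0.24, adjusted p = 7.09e-32).

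Type VIII chains form hexagonal networks in vessel walls and the cornea, and were high in different states. COL8A1 was at 1.77 and 1.78 CPM in naïve H9, 0.209 and 0.143 in primed H9, 0.736 and 0.636 in RUES2-GLR, 0.479 and 0 in early RA-gastruloids and 0.0968 and 0 in late ones. COL8A2 was at 0.209 and 0.229 CPM in naïve H9, 9.42 and 9.76 in primed H9, 6.21 and 5.41 in RUES2-GLR, 0.383 and 0.403 in early RA-gastruloids and 0.29 and 0 in late ones. COL8A1 fell from naïve to primed H9 ESCs (-3.40 ± 0.53, adjusted p = 9.43e-07) while COL8A2 rose (5.41 ± 0.34, adjusted p = 3.88e-15), and COL8A2 fell in early RA-gastruloids (-3.90 ± 0.43, adjusted p = 3.02e-09). COL7A1, the chain of anchoring fibrils, was at 7.51 and 9.1 CPM in naïve H9, 2.51 and 2.83 in primed H9, 10.6 and 12.1 in RUES2-GLR, 25 and 25.1 in early RA-gastruloids and 5.37 and 3.97 in late ones. It fell from naïve to primed H9 ESCs (-1.60 ± 0.19, adjusted p = 7.77e-09) and from early to late RA-gastruloids (-2.37 ± 0.18, adjusted p = 1.50e-12). COL26A1, a chain with few known roles, was at 36 and 45 CPM in naïve H9, 141 and 147 in primed H9, 371 and 415 in RUES2-GLR, 127 and 129.7 in early RA-gastruloids and 213 and 150.2 in late ones, and was the leading collagen by TPM in primed RUES2-GLR ESCs at 273 ± 14.3. Mouse Col26a1 was at 6.41 and 5.82 CPM in naïve ESCs, 9.89 and 8.8 in EpiLCs, 3.11 and 3.16 in early gastruloids and 128 and 139.7 in late ones. It fell from EpiLCs to early gastruloids (-1.55 ± 0.18, adjusted p = 4.45e-11) and rose to late ones (5.41 ± 0.12, adjusted p = 1.18e-43). Of the 38 human members that reached a mean of 1 CPM in a group, 13 were highest in early RA-gastruloids, 11 in primed RUES2-GLR ESCs, 7 in late RA-gastruloids, 5 in the naïve state of H9 and 2 in its primed state. In mouse, 28 of 36 were highest in late gastruloids, 4 in EpiLCs, 3 in early gastruloids and 1, Col9a2, in naïve ESCs.

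The remaining human members that passed the filter were under 20 CPM in every library. COL27A1, a fibrillar chain of cartilage, was at 13.4 and 15.6 CPM in naïve H9, 10.7 and 12.6 in primed H9, 11.6 and 11.8 in RUES2-GLR, 15.8 and 15.6 in early RA-gastruloids and 15.8 and 12.6 in late ones. It was called at no step. COL25A1, a membrane-spanning chain of neurons, was at 0.73 and 0.687 CPM in naïve H9, 6.42 and 7.78 in primed H9, 5.56 and 5.73 in RUES2-GLR, 4.5 and 4.64 in early RA-gastruloids and 12.5 and 12.9 in late ones. It rose from naïve to primed H9 ESCs (3.34 ± 0.25, adjusted p = 3.34e-13) and from early to late RA-gastruloids (1.47 ± 0.20, adjusted p = 2.28e-07). Of the 4 membrane-spanning chains it was the one with its highest mean at the late stage. COL28A1, a chain of the peripheral nerve sheath, was at 1.15 and 1.15 CPM in naïve H9, 0.14 and 0.214 in primed H9, 0.327 and 0.318 in RUES2-GLR, 0.67 and 0.202 in early RA-gastruloids and 0.436 and 0.305 in late ones. From naïve to primed H9 ESCs it fell (-2.52 ± 0.51, adjusted p = 5.67e-05). COL16A1, a FACIT, was at 3.91 and 3.21 CPM in naïve H9, 7.61 and 8.07 in primed H9, 12.3 and 9.54 in RUES2-GLR, 4.88 and 6.45 in early RA-gastruloids and 1.06 and 1.02 in late ones. It fell from early to late RA-gastruloids (-2.42 ± 0.29, adjusted p = 2.76e-08). Its changes from naïve to primed H9 ESCs (1.14 ± 0.20, adjusted p = 5.26e-06) and from RUES2-GLR ESCs to early RA-gastruloids (-1.01 ± 0.22, adjusted p = 2.36e-04) lay at the fold threshold and were each lost in at least 1 fit without a library. COL21A1, another FACIT, and COL24A1, a fibrillar chain, stayed under 5 CPM in all libraries, and their 3 calls were lost under DESeq2. Of the 6 human members that were not tested, COL6A5 had the highest group mean, at 0.678 CPM, and the others were COL4A3, COL10A1, COL15A1, COL19A1 and COL20A1.

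Of the remaining mouse members, Col23a1, Col14a1 and Col15a1 stood out by their late levels. Col23a1 was at 0.557 and 0.0896 CPM in naïve ESCs, 0.59 and 0.328 in EpiLCs, 0.542 and 0.351 in early gastruloids and 40.8 and 37 in late ones. Col14a1 was at 0.139 and 0 CPM in naïve ESCs, 0.738 and 1.25 in EpiLCs, 0.542 and 0.878 in early gastruloids and 23.4 and 20.1 in late ones. It rose from early to late gastruloids (5.01 ± 0.26, adjusted p = 8.01e-25). Col15a1, the other multiplexin, was at 0 and 0 CPM in naïve ESCs, 0 and 0.197 in EpiLCs, 0.197 and 0.263 in early gastruloids and 4.31 and 3.72 in late ones. It rose at the same step (4.12 ± 0.51, adjusted p = 2.34e-10). In each of the 3, both late libraries lay above every earlier one. Col11a2 was at 0 and 0 CPM in naïve ESCs, 0.148 and 0.131 in EpiLCs, 0.641 and 0.176 in early gastruloids and 2.91 and 2.08 in late ones. It too rose from early to late (2.41 ± 0.50, adjusted p = 2.23e-05). Col9a3 was at 1.67 and 1.52 CPM in naïve ESCs, 3.69 and 4.07 in EpiLCs, 6.46 and 6.15 in early gastruloids and 5.24 and 5.8 in late ones. It rose already from naïve ESCs to EpiLCs (1.31 ± 0.32, adjusted p = 3.02e-04). Col7a1 was at 0.139 and 0.358 CPM in naïve ESCs, 1.03 and 2.1 in EpiLCs, 1.43 and 1.23 in early gastruloids and 2.68 and 2.53 in late ones. It rose at that step as well (2.63 ± 0.62, adjusted p = 2.12e-04), a call lost without EpiLCs replicate 2 (1.88). Both of these rose before the late stage. Col16a1 was at 0.418 and 0.179 CPM in naïve ESCs, 1.92 and 1.25 in EpiLCs, 1.58 and 1.58 in early gastruloids and 2.1 and 2.53 in late ones. Col17a1 was at 1.11 and 0.538 CPM in naïve ESCs, 1.18 and 1.12 in EpiLCs, 0.542 and 0.702 in early gastruloids and 0.117 and 0.595 in late ones. It was called at no step. Col8a2 was at 0.279 and 0.0896 CPM in naïve ESCs, 0.295 and 0.92 in EpiLCs, 0.641 and 1.23 in early gastruloids and 2.56 and 2.68 in late ones, which rested on few counts. Its call from early to late (1.58 ± 0.44, adjusted p = 0.00111) was lost under DESeq2 (1.56) and without early mouse gastruloids replicate 1 (1.08). Of the 10 mouse members that were not tested, Col25a1 had the highest group mean, at 1.45 CPM, and the others were Col4a3, Col4a4, Col6a6, Col8a1, Col12a1, Col19a1, Col20a1, Col24a1 and Col28a1.

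The naïve H9 values need care because the line was grown on mouse fibroblasts, which make much collagen. To see how far a mouse read could be counted for the human gene, 100-base windows of the mouse transcript of each matched member were aligned to the human genes. At least 66 aligned bases with at most 10 mismatches and gaps in the human counterpart were found for 60.3% of the windows of Col1a1, 62% of Col2a1, 44.4% of Col3a1 and 38.3% of Col1a2. COL8A1 (22.9%), COL7A1 (25.3%), COL17A1 (21.4%), COL6A6 (13.9%) and COL9A3 (10.2%) had fewer. The median over 42 collagens was 22.1%, and over 12 fibroblast markers it was 15.7%, with 2.04% for DCN, 5.56% for LUM and 15.2% for PRRX1. The genes with the highest share of alignable windows included COL1A1 and COL3A1, 2 of the 8 that fell from naïve to primed H9 ESCs, and COL2A1, which rose. The level of each gene in the feeder cells was not measured, so these shares do not give the number of feeder reads. Among the 15 tested members with under 20% of windows alignable, 10 rose and 2, COL6A6 and COL9A3, fell. The part of feeder reads in COL1A1, COL3A1 and the other members that fell was not tested, since the counts do not separate the species of a read.

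**Figure D4:**
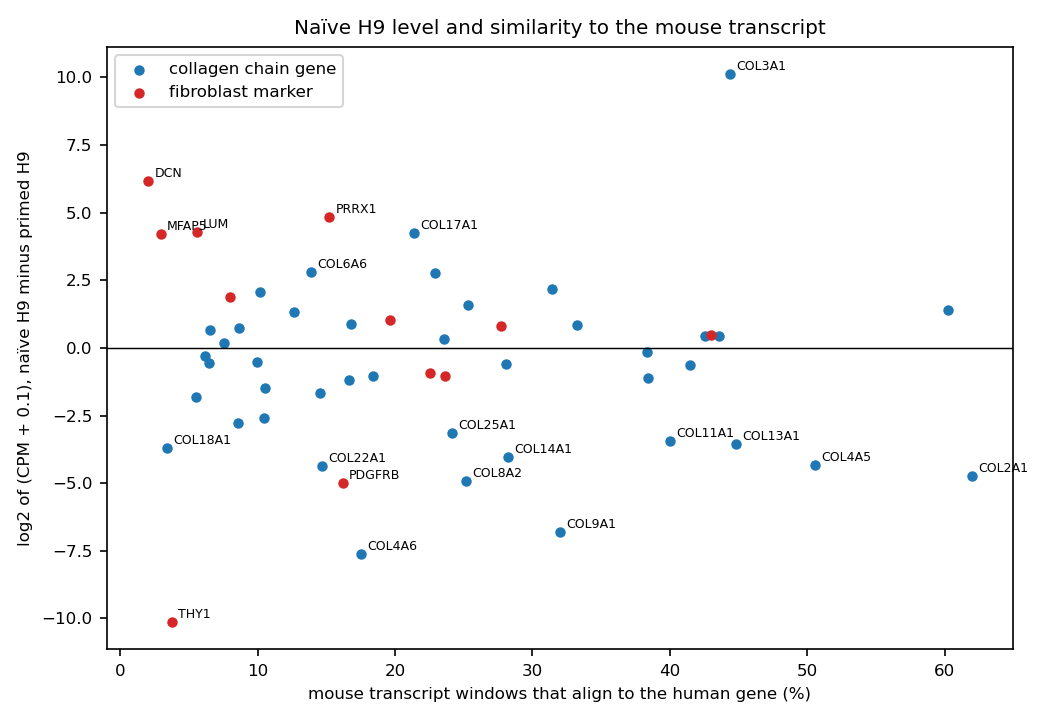
Each point is a gene, with collagens in blue and fibroblast markers in red. The horizontal axis gives the percent of 100-base mouse transcript windows that align to the human counterpart. The vertical axis gives log2(mean CPM + 0.1) of naïve minus that of primed H9 ESCs. COL3A1 lies far above the other collagens at 44.4% of windows, and COL2A1 lies well below 0 at 62.0%.

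Whether human and mouse members changed alike was tested as a difference of log2 fold changes in 1 fit of 13930 matched genes. The step from RUES2-GLR ESCs to early RA-gastruloids was set against EpiLCs to early mouse gastruloids, and early to late against early to late. These stages are matched by the study's names for them, and the protocols, lines and times differ between species. For the first step 18 of 39 members differed, 11 with a log2 fold change that was higher in human and 7 with one that was lower, against 12.8% and 19.7% of all genes, and 32.5% in either direction. COL3A1 differed by 6.92 ± 1.77, adjusted p = 0.00117, a call lost without EpiLCs replicate 2 (3.52), and Col3a1 had few counts at both of these mouse stages. COL13A1 differed by 4.42 ± 0.49, adjusted p = 1.45e-09. COL9A1 differed by -4.35 ± 1.31, adjusted p = 0.00498, which was lost without early mouse gastruloids replicate 1 (-3.54).

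From early to late 31 of 39 members differed, 2 with a log2 fold change that was higher in human and 29 with one that was lower, against 16.7% and 18.7% of all genes, and 35.4% in either direction. COL3A1 (-10.19 ± 0.28, adjusted p = 9.60e-26), COL1A1 (-9.69 ± 0.23, adjusted p = 4.14e-28) and COL13A1 (-9.21 ± 0.33, adjusted p = 5.56e-23) led. COL1A1 and COL13A1 fell in human and rose in mouse, whereas COL3A1 rose in both. COL6A1 (-6.12 ± 0.35, adjusted p = 4.29e-17), COL9A1 (-5.89 ± 0.45, adjusted p = 1.20e-13) and COL4A1 (-5.09 ± 0.14, adjusted p = 7.55e-27) followed. The sign gives the direction and not the size of the change: COL5A3 fell in both species, and further in human. COL22A1 (1.20 ± 0.27, adjusted p = 2.13e-04) and COL11A2 (1.66 ± 0.61, adjusted p = 0.0184) were the members with the higher log2 fold change in human, and the call of COL11A2 was lost without early RA-gastruloids replicate 2 (1.39) and without early mouse gastruloids replicate 1 (0.27). COL2A1 rose at this step in each species, and its difference of -0.36 ± 0.15, adjusted p = 0.0343, was not past the fold threshold. That of COL18A1 was 0.55 ± 0.14, adjusted p = 8.19e-04, also not past it.

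**Figure D5:**
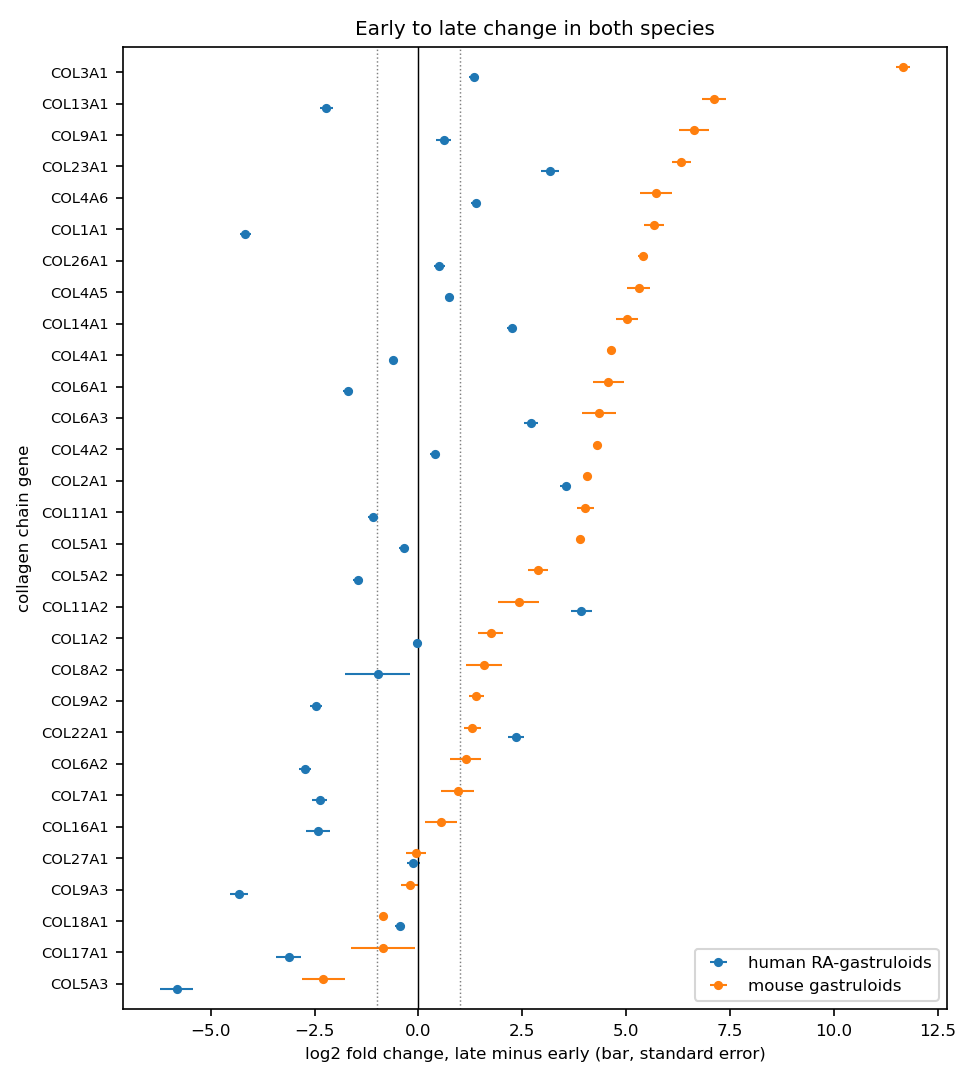
Log2 fold change from early to late gastruloids (horizontal axis, bars are SE) of each member tested in both species, with human in blue and mouse in orange. Orange points lie to the right of blue ones for most members, and COL2A1 shows both species at a similar rise.

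Collagen chains are hydroxylated, glycosylated, folded by chaperones, trimmed, cross-linked and in time degraded by dedicated proteins, and 49 genes of these steps were counted beside the chains. From naïve to primed H9 ESCs 14 of 44 tested rose and 8 fell, against 25.5% and 22.3% of all genes. P3H2, a prolyl 3-hydroxylase, rose from 0.678 and 1.03 to 21.4 and 22.6 CPM (4.69 ± 0.19, adjusted p = 9.37e-20), and COLGALT2, which adds galactose to collagen, from 0.209 and 0.286 to 5.03 and 6.66 (4.57 ± 0.33, adjusted p = 1.11e-13). MMP14, a membrane-bound collagenase, fell from 489 and 526 to 102 and 109 (-2.26 ± 0.12, adjusted p = 3.31e-17), and MMP13, a secreted collagenase, was at 8.35 and 6.59 in naïve H9 ESCs and at 0 in primed ones, at least 53.2-fold lower. No mouse windows were aligned for the biosynthesis genes, and the part of feeder reads in their naïve H9 levels was not tested. From H9 to RUES2-GLR primed ESCs 28 of the 44 tested rose, against the 17.1% of all genes given above. P4HA2, a catalytic chain of prolyl 4-hydroxylase, rose from 8.03 and 9.4 to 61.2 and 62 CPM (2.79 ± 0.14, adjusted p = 5.73e-17) and P3H2 from 21.4 and 22.6 to 139.6 and 153 (2.72 ± 0.12, adjusted p = 3.58e-18). SERPINH1, the collagen chaperone HSP47, was at 416 and 461 CPM in naïve H9, 663 and 713 in primed H9, 1809 and 2103 in RUES2-GLR, 536 and 561 in early RA-gastruloids and 499.6 and 351 in late ones.

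Of 44 tested biosynthesis genes, 6 rose and 15 fell between RUES2-GLR ESCs and early RA-gastruloids, against 12.0% and 17.6% of all genes. SERPINH1 was among those that fell (-1.83 ± 0.12, adjusted p = 6.05e-14), while 6 of 11 fibrillar chains rose and 2 fell at the same step. MMP2, a gelatinase, rose from 155 and 163 to 667 and 679 CPM (2.09 ± 0.11, adjusted p = 1.84e-16) and LOXL4, a cross-linking enzyme, from 2.04 and 1.27 to 6.8 and 5.44 (1.72 ± 0.34, adjusted p = 8.10e-05). ITGA2, a collagen-binding integrin chain, fell from 26 and 25.1 to 1.05 and 0.907 (-4.70 ± 0.26, adjusted p = 3.86e-16), and MMP9, another gelatinase, from 10.2 and 15.6 to 0.766 and 1.21 (-3.58 ± 0.31, adjusted p = 2.24e-11). From early to late RA-gastruloids 3 of 44 rose and 12 fell, against 11.8% and 13.2% of all genes, with 4 of 9 prolyl hydroxylation genes and 4 of 6 breakdown genes among those that fell. PCOLCE, which speeds the trimming of fibrillar procollagen, rose from 11.7 and 11.4 to 182 and 153 CPM (3.86 ± 0.14, adjusted p = 1.03e-20), and ITGA2 from 1.05 and 0.907 to 9.73 and 12.1 (3.44 ± 0.27, adjusted p = 3.44e-12). P3H2 fell from 203 and 205 to 20.3 and 19 (-3.37 ± 0.12, adjusted p = 1.91e-20), and PLOD2, a lysyl hydroxylase, from 328 and 320.3 to 34.3 and 40.5 (-3.13 ± 0.12, adjusted p = 7.10e-20).

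In mouse, 18 of 42 tested biosynthesis genes rose and 11 fell from naïve ESCs to EpiLCs, against 17.7% and 12.1% of all genes. From EpiLCs to early gastruloids 4 rose and 7 fell, against 11.7% and 9.24%. Mrc2, a receptor that takes up collagen fragments, rose from 0.557 and 0.269 to 35.9 and 44.1 CPM (6.70 ± 0.23, adjusted p = 2.14e-33) and P3h2 from 0 and 0.179 to 3.1 and 2.96 (a ratio of 27.5 with a 95% counting interval of 7.32 to 232, adjusted p = 2.69e-09), while Loxl4 fell from 2.23 and 4.21 to 0.148 and 0 (a ratio of 75.6 with a 95% counting interval of 13.1 to 3032, adjusted p = 1.73e-09) and Pcolce2 from 101 and 105 to 18.6 and 17 (-2.56 ± 0.09, adjusted p = 9.97e-32). From EpiLCs to early gastruloids Itga1 rose from 1.62 and 2.04 to 20.1 and 18.6 (3.34 ± 0.20, adjusted p = 8.43e-22) and Adamts14, which trims procollagen, from 2.21 and 1.9 to 9.76 and 9.48 (2.26 ± 0.23, adjusted p = 1.22e-12). Mmp9 fell from 3.84 and 1.97 to 0.197 and 0.351 (-3.31 ± 0.50, adjusted p = 8.12e-08) and Tll1 from 3.54 and 4.14 to 1.63 and 0.439 (-1.73 ± 0.34, adjusted p = 1.66e-05). Against naïve ESCs, early gastruloids had 16 of 42 genes higher and 7 lower, against 16.2% and 6.81% of all genes. They were led by Mrc2 (5.84 ± 0.26, adjusted p = 6.54e-28) and Itga1 (4.46 ± 0.25, adjusted p = 3.27e-23) upward and by Loxl4 (-2.72 ± 0.45, adjusted p = 5.33e-07) and Pcolce, at 80.3 and 83.1 against 16.5 and 13.3 CPM (-2.43 ± 0.09, adjusted p = 1.57e-30), downward.

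In late mouse gastruloids many processing genes rose at the same step as the chains, with 22 of 42 tested that rose and 3 that fell, against 20.1% and 19.1% of all genes. Of 5 tested cross-linking genes 4 rose, and all 4 tested breakdown genes rose. P3h2 rose from 1.08 and 1.32 to 39.6 and 31.4 CPM (4.92 ± 0.20, adjusted p = 1.29e-29) and Bmp1, the main procollagen C-proteinase, from 4.24 and 4.39 to 90.6 and 86.4 (4.36 ± 0.12, adjusted p = 2.58e-38). Serpinh1 rose from 315 and 319.6 to 1128 and 1114 (1.82 ± 0.05, adjusted p = 1.63e-38), where SERPINH1 in human went from 536 and 561 to 499.6 and 351 (-0.36 ± 0.12, adjusted p = 0.0117). Pcolce2 fell from 26.2 and 24.1 to 3.84 and 5.35 (-2.48 ± 0.16, adjusted p = 3.04e-21) and Adamts14 from 9.76 and 9.48 to 1.98 and 2.53 (-2.11 ± 0.25, adjusted p = 5.60e-11). Fibroblast markers moved with the fibrillar chains at this step: 8 of 11 tested rose and 1 fell, and their sum went from 205 to 216 CPM in early to 943 to 954 CPM in late gastruloids. Their part in the rise of the fibrillar chains was not tested.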

How the data were processed

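Polyadenylated RNA of 18 libraries was profiled. The authors deposited 1 table per species of raw read counts per gene with exon lengths. Per the labels and the study's methods, they demultiplexed with bcl2fastq 2.20, trimmed with Trimmomatic 0.39, aligned with STAR (GRCh38 or GRCm39) and then counted reads with featureCounts under default settings, which use no strand and leave out ambiguous and multi-mapping reads, so that exons shared by 2 genes are undercounted. The annotation release was not given in the sources used here. All sample columns were mapped to a group by their labels (columns not mapped: 0). The study describes its duplicates as biological.

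Symbols came from GENCODE 44 and M39 by gene identifier, which matched 44876 of 44910 human and 29486 of 29720 mouse genes. Counts were scaled by TMM, and genes passing filterByExpr (18300 human, 15003 mouse) were tested with glmQLFit and glmQLFTest of edgeR 4.0.16 (limma 3.58.1, R 4.3.3) with each species fitted by itself and a coefficient for every group. p-values were two-sided and adjusted by the Benjamini-Hochberg method over all tested genes. SEs came from the coefficient and its quasi-likelihood test statistic. Species differences were tested in 1 fit of 13930 matched genes. The biological coefficient of variation was 8.18% in human and 4.30% in mouse. Printed log2 fold changes used the default prior count of edgeR, which makes them no bounds for genes at 0. A prior count of 2 entered only the correlations between libraries with the same replicate number. Ratios whose lower group held at most 3 counts in each library, and not 0 in both, carry exact 95% intervals for counting error only. TPM used the deposited exon lengths, so TPM ratios between genes depend on them. Col1a2, for 1, had 12426 bases there against 5437 in the mouse transcript used for the windows. On simulated counts, 198 of 200 changed genes were recovered among 18300 for the human early to late step with 4 false calls, and 199 of 200 among 15003 for the mouse step with 3. Mouse windows of 100 bases, taken every 25 bases, were aligned with minimap2 2.31. Tables and plots used Python 3.11.15, pandas 2.3.3, numpy 2.4.6 and matplotlib 3.10.9.

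The members, the classes and the gene lists were chosen with earlier results of these data known. Full values are given for the 3 called members with the largest rise and the 3 with the largest fall in each comparison with at least 1 CPM in the higher group, for chains of types I to VI and XVIII with at least 1 CPM in any group mean, and for the 3 largest called species differences in each test. For biosynthesis genes they are given for the 2 with the largest rise and the 2 with the largest fall, with the same minimum. COL6A6, COL7A1, COL12A1, COL14A1, COL26A1, SERPINH1 and the marker genes named were added after their values were seen. The likeness of other genes to type I chains was computed over 5 and 4 group means only and is not reported. Alternatives were DESeq2 1.42.0, its size factors or upper quartile scaling in edgeR, no filter on low counts, the adjusted p alone, the compared groups alone, a replicate block and leaving out each library. RefSeq promoter windows were found for 32 of the 44 human members, and the sequences are those of GRCh38.p14.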

Additional observations from a re-analysis of the deposited data

Results flagged for a closer look

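Human and mouse members differed in their change in 6 results by a test of the difference itself (quasi-likelihood in edgeR, adjusted by Benjamini-Hochberg over 13930 matched genes). In the step from the primed state to early gastruloids, the log2 fold change of COL3A1 in human exceeded that in mouse by 6.92 and that of COL13A1 by 4.42, and that of COL9A1 was lower, with a difference of -4.35. In the step from early to late gastruloids, the differences were -10.19 for COL3A1, -9.69 for COL1A1 and -9.21 for COL13A1. The groups were too small for a search for single libraries that stand apart.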

How the results depend on the processing

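Counts of called members kept within 1.5 times their value under the alternatives tried, with these exceptions. With the adjusted p alone, 27 members were higher and 3 lower from primed H9 to primed RUES2-GLR ESCs, 15 higher and 17 lower from there to early RA-gastruloids, 5 lower from naïve mouse ESCs to EpiLCs, and 5 higher and 7 lower from EpiLCs to early gastruloids. COL4A4, the 1 member lower in RUES2-GLR than in H9 primed ESCs, was not called by DESeq2 (0), and leaving out single libraries gave 0 to 1 there, with 0 without primed RUES2-GLR ESCs replicate 1. The 20 members higher in early mouse gastruloids than in naïve ESCs were 13 in a fit of the compared groups alone and 13 to 18 when 1 library was left out. Restricted to members with few alignable mouse windows, an alternative chosen after seeing the data, 10 were higher and 2 lower from naïve to primed H9 ESCs, a smaller count by construction since 15 members entered. Between RUES2-GLR ESCs and early RA-gastruloids the log2 fold change of COL24A1 ranged from -2.14 to 0.53 when 1 library was left out, and was positive without RUES2-GLR ESCs replicate 1. COL1A2, near 0 between the gastruloid stages, was at 0.022 without a filter on low counts and ranged from -0.16 to 0.10 when 1 library was left out. All 9 group shares of collagen moved when taken as a share of counts, and all 9 without the leading member. The causes of these shifts were not tested. Libraries with the same replicate number did not deviate together, with correlations of -0.112 to 0.068 in human and -0.048 to 0.008 in mouse. With a replicate block the counts were 9 higher and 13 lower from early to late RA-gastruloids and 24 and 3 in mouse, 3 of 169 member changes lost their call, and 1 of 51 species differences did. DESeq2 kept 155 of 169 member changes on their side of the thresholds. A count of 3 stood for under 1 CPM, so called changes of members below that level rested on few counts in 2 libraries a group.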

Other observations

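In groups whose sums were not given above, the marker lists summed as follows per library. Endothelial markers were at 159 to 163 CPM in primed H9 ESCs, 286 to 295 in primed RUES2-GLR ESCs, 29.0 to 30.1 in early and 63.1 to 75.8 in late RA-gastruloids. Extraembryonic endoderm markers were at 68.8 to 84.5 CPM in naïve H9 ESCs, 12.8 to 13.6 in primed H9 ESCs, 205 to 209.6 in early and 69.5 to 75.8 in late RA-gastruloids. Notochord and sclerotome markers in mouse were at 228 to 229.7 CPM in early and 72.2 to 75.5 in late gastruloids.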
